A study of Mus musculus with 6 samples.

Results

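The antioxidant, glutathione, metal and iron genes compared here are 90 mouse genes that were picked by their symbols alone: glutathione transferases and peroxidases, superoxide dismutases and catalase, peroxiredoxins, thioredoxins and glutaredoxins, selenoproteins, metallothioneins, ferritin and transferrin, heme oxygenases and biliverdin reductases, the Keap1 system and the subunits of the NADPH oxidases. They are 90 of the 13840 genes for which a probe carried a single symbol. A probe with a value on every array was present for 76 of them, of 8596 such genes in all, and each gene is represented by its brightest probe. The label is broader than the biology of some members. The NADPH oxidase subunits make superoxide instead of removing it, Txnl4a is a part of the spliceosome in spite of its thioredoxin-like name, and Selenbp2 binds selenium without being a selenoprotein.

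The tissue was inguinal fat, a subcutaneous depot, of male C57BL/6J mice. They received a high saturated fat diet (D12331) for 4 weeks from 8 weeks of age, and both groups were inbred mice with no genetic alteration and no other treatment in the labels. One RNA pool was made from 8 mice that had gained much weight (high gainers) and one from 8 mice that had gained little (low gainers), and 3 one-color arrays were run for each. These 3 arrays repeat the measurement of a single RNA pool, so that p-values describe the spread between arrays, not between mice, and n counts arrays. Values are normalized signal intensities on a linear scale, and the sign of a log2 ratio is that of high over low gainers.

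Mitochondria and oxidases release superoxide, which superoxide dismutases turn into hydrogen peroxide. Catalase, glutathione peroxidases and peroxiredoxins then remove the peroxide, with glutathione and thioredoxin as reductants, and glutathione transferases join glutathione to electrophiles and lipid aldehydes. Many of these enzymes are induced by the transcription factor Nrf2, which Keap1 holds in check and which binds the antioxidant response element. In phagocytes and B lymphocytes, by contrast, a membrane oxidase of Cybb and Cyba is switched on by cytosolic subunits such as those of Ncf1 and Ncf4 together with a Rac protein, and superoxide is its product.

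The promoter of Ncf1 is shown because Ncf1 was 1 of the 2 members called by the thresholds given below. It reads, from 250 to 11 bases before the annotated start at chr5:134229636-134229875 on the minus strand of GRCm38.p6, in the RefSeq promoter table:
Ncf1: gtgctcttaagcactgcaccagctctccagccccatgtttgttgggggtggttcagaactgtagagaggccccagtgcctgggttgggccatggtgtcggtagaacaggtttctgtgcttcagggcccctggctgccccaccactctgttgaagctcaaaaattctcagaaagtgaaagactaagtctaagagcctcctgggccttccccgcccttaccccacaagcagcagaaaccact
These 240 bases held no match to the core of the antioxidant response element, searched as TGACNNNGC on both strands, nor to the core of the metal response element, searched as TGCNCNC. Short stretches around the first core are shown for 5 enzymes described below, with the core in capitals on the strand of the gene, where GCNNNGTCA is the same motif on the other strand:
Gclm (chr3:122245403-122245451, plus strand): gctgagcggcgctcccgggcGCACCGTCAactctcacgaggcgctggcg
Gsta3 (chr1:21240444-21240492, plus strand): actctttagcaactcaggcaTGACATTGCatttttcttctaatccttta
Mgst1 (chr6:138140451-138140499, plus strand): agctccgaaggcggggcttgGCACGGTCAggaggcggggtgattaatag
Prdx1 (chr4:116685446-116685494, plus strand): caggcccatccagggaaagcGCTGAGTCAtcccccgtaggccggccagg
Sod1 (chr16:90220686-90220734, plus strand): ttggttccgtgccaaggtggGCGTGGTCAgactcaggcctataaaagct
A match of this kind was present in the 250 bases before the start of 11 of the 80 members with an entry (13.8%) and of 3112 of all 27025 genes in the table (11.5%). The 10 tested members with a match had a median log2 ratio of 0.02 and a range from -0.39 to 0.07, and the 56 tested members with an entry and no match had a median of 0.05. The metal response core was found in 37 of the 80 members (46.2%) and in 47.2% of all genes. The members without an entry in the table include Ncf4, Sod3, Hmox1, Gclc, Gsr, Gsta4, Trf, Gstt2, Txnl1 and Txnl4a, which were not searched.

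The members differed little between the pools. Only the oxidase genes Ncf4 and Ncf1 were called, and both were lower in high gainers. They are 2 of 76 members (2.63%), whereas 3.99% of all 15821 probes tested were called lower. No member was called higher, and 2.5% of all probes were. Calls needed a limma p under 0.01 after Benjamini-Hochberg adjustment together with a fold change of 1.5 or more, and in either direction they made up 6.5% of all probes. At an unadjusted p under 0.05 in limma, 17 members (22.4%) were higher, beside 17.4% of all probes. On the lower side were 11 (14.5%), beside 13.6% of all probes. The test used by the study, at an unadjusted p under 0.01 and the same fold, gave 0 members higher and 3 (3.95%) lower. The third was Cybb, and the shares of all probes were 3% higher and 4.29% lower. The median log2 ratio of the members was 0.04, with 45 above 0 and 31 below, and that of all probes was 0.03. The ratios ran from -1.12 to 0.63, and 70 of the 76 members (92.1%) lay within 0.5 of 0 on the log2 scale, as did 84.3% of all probes. All 3 high-gainer arrays lay above all 3 low-gainer arrays for 20 members (26.3%, beside 20.3% of all probes) and below them for 13 (17.1%, beside 16.3%).

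**Figure D1:**
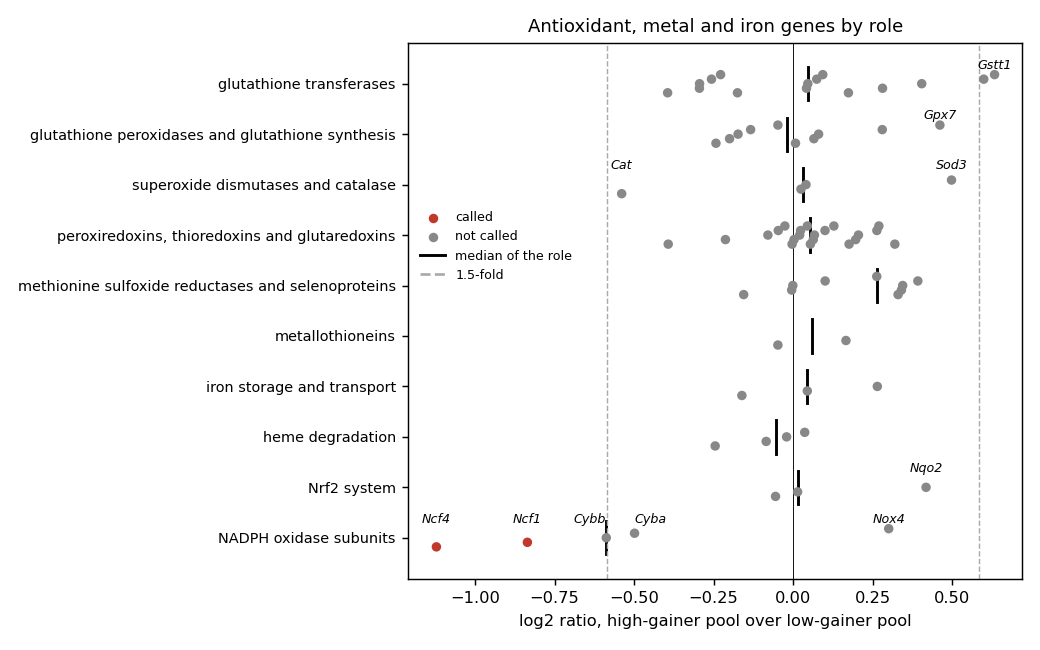
Log2 ratio of high-gainer over low-gainer signal on the horizontal axis for the 76 tested members, 1 point per gene, by role on the vertical axis. Red points were called, black bars are the median of each role and dashed lines mark a 1.5-fold difference. The points lie close to 0 in most roles, and the NADPH oxidase subunits reach from -1.12 for Ncf4 to 0.30 for Nox4.

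The oxidase subunits were the role farthest from 0, with a median log2 ratio of -0.59 over the 5 measured of 9. Ncf4 encodes p40phox, a cytosolic subunit that binds a membrane phosphoinositide. Its signal was 15589, 16688 and 15520 on the high-gainer arrays and 32454, 38118 and 33642 on the low-gainer arrays. Each low-gainer array was above every high-gainer array by a wide margin, with means of 15932 ± 655 and 34738 ± 2987 (SD, n = 3 arrays each). The log2 ratio was -1.12 (SE 0.10, limma adjusted p = 0.000545), or 2.18-fold lower in high gainers with a 95% interval from 1.85 to 2.57.

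Ncf1 encodes p47phox, the organizer that carries the cytosolic complex to the membrane, and its promoter is the one printed above. It gave 18087, 19098 and 17990 in high gainers and 33673, 32481 and 32299 in low gainers. The 2 sets of arrays were again far apart and each was tight. The log2 ratio was -0.84 (SE 0.09, limma adjusted p = 0.000927), or 1.78-fold lower in high gainers with an interval from 1.55 to 2.06. Ncf4 and Ncf1 were called lower in each of the 6 fits that left out 1 array.

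Both membrane subunits had values on the same side without passing the test. Cybb encodes gp91phox, the catalytic subunit of the phagocyte oxidase, also called Nox2. Its signal was 15707, 15070 and 14101 in high gainers and 23199, 24535 and 19899 in low gainers, with no overlap, a log2 ratio of -0.59 (SE 0.11) and a limma adjusted p of 0.0125. Cyba, which encodes p22phox, the stabilizing partner of several Nox proteins, gave 105974, 94743 and 133535 against 137617, 172331 and 159453. Here the highest high-gainer array came close to the lowest low-gainer array, and the log2 ratio was -0.50 (SE 0.15, limma adjusted p = 0.0665).

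Nox4, an oxidase of adipocytes and vascular cells that gives off hydrogen peroxide and needs no cytosolic subunit, was on the other side. It gave 5200, 5294 and 4965 in high gainers and 4186, 4193 and 4166 in low gainers, a dim signal in the lowest 33.3% of tested probes, with no overlap, a log2 ratio of 0.30 (SE 0.09) and a limma adjusted p of 0.0536. For all 5 measured subunits the arrays of the pools did not overlap, with high gainers above for 1 and below for 4, beside 20.3% and 16.3% of all probes. Nox1, Nox3 and Noxa1 had no value on any array, and Noxo1 had a value on 1 high-gainer and 2 low-gainer arrays. These are genes of the colon and the inner ear oxidases and of their regulators. Among genes that work with the oxidase but are not members, Rac2, the Rac protein of blood cells, was called lower. Its signals were 36587, 36060 and 44943 against 105906, 115893 and 109665 (log2 ratio -1.50, SE 0.12, limma adjusted p = 0.000328), while Rac1, which most cells make, had a log2 ratio of 0.02.

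**Figure D2:**
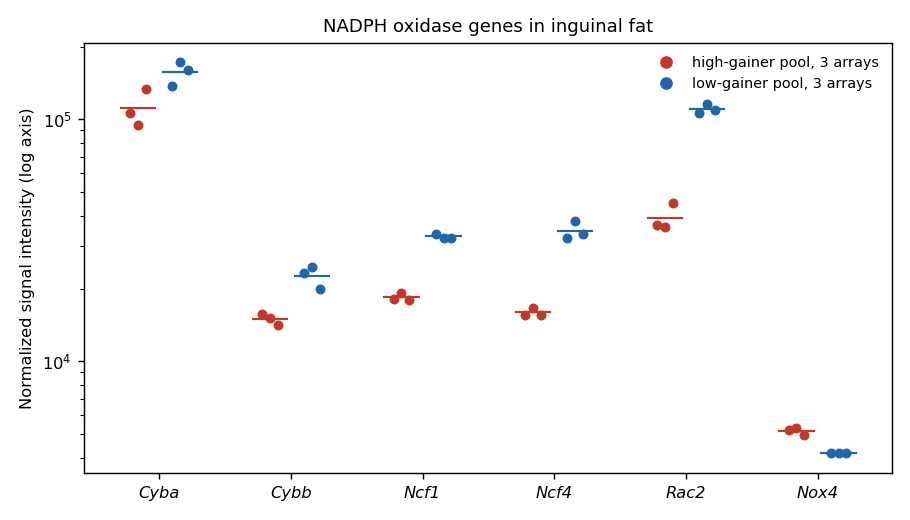
Normalized signal intensity on a log axis for the oxidase genes, 1 point per array, red for the 3 high-gainer and blue for the 3 low-gainer arrays, with a line at the mean. The blue points of Ncf4, Ncf1 and Rac2 lie far above the red ones, those of Cybb and Cyba less so, and for Nox4 the red points are higher.

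Adipocyte markers had a value on every array for the 7 of 10 with a named probe, with summed signals of 3671079 to 3863231 in high gainers and 3113059 to 3400154 in low gainers. Of these 7 markers 1 was called, Lep, which encodes leptin, with a log2 ratio of 0.83 (limma adjusted p = 0.00350). Lep holds 825649 to 1011527 of these sums in high gainers and 471078 to 547516 in low gainers. High-gainer arrays lay above for 2 of the 7 and below for 1, Cidec (log2 ratio -0.30), and 4 overlapped. The median of the 7 was 0.16. Of 3 measured brown and beige adipocyte markers 1 was called, Ucp1, with a log2 ratio of -2.77 (limma adjusted p = 0.000174). All 3 had lower values on each high-gainer array, with sums of 812210 to 857102 and 1038019 to 1066466. Most of these sums came from Cox8b, at 799515 to 844788 and 982885 to 1011527, which was not called (log2 ratio -0.28, limma adjusted p = 0.0637). The 2 pools also differed in leukocyte markers, and the part of these marker differences in the oxidase values was not tested. All 4 measured B lymphocyte markers were called lower in high gainers, with a median log2 ratio of -1.66 and a summed signal of 85878 to 90611 on the high-gainer arrays and 295348 to 312124 on the low-gainer arrays. Of the 4 measured T lymphocyte markers 3 were called lower (median -1.79), with sums of 55864 to 62365 and 188902 to 222311. None of the 6 measured macrophage and phagocyte markers was called, their median was 0.12, and their sums of 1364241 to 1471889 and 1444352 to 1637345 overlapped. Most of these sums came from Lyz2, the lysozyme of phagocytes, at 953288 to 1036871 and 1113399 to 1281738. Lyz2 was higher on every low-gainer array, with a log2 ratio of -0.23. Cd163, a scavenger receptor of tissue macrophages, was higher on every high-gainer array, with one of 0.44. The other 4 macrophage and phagocyte markers overlapped, and 2 of the 6 came from dim probes. None of the 3 measured neutrophil markers was called, and all 3 had higher values on each high-gainer array (median 0.50), with sums of 75637 to 85922 and 55504 to 58326. At an unadjusted p under 0.05 in limma, the higher markers numbered 1 for macrophages and 3 for neutrophils, and 0 of either list were lower. Of 5 measured stromal markers 1 was called, Dpt, which was higher at a log2 ratio of 1.18 (limma adjusted p = 0.00202), and the median was 0.12. Endothelial markers, 4 measured, had a median of 0.34 and 0 called, and 2 were higher on every high-gainer array. Fewer cells of a type and less RNA per cell cannot be told apart in such pools. The study names lymphatic tissue as an example of contaminating cells in inguinal fat. Its part in the lymphocyte marker and oxidase values was not tested.

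**Figure D3:**
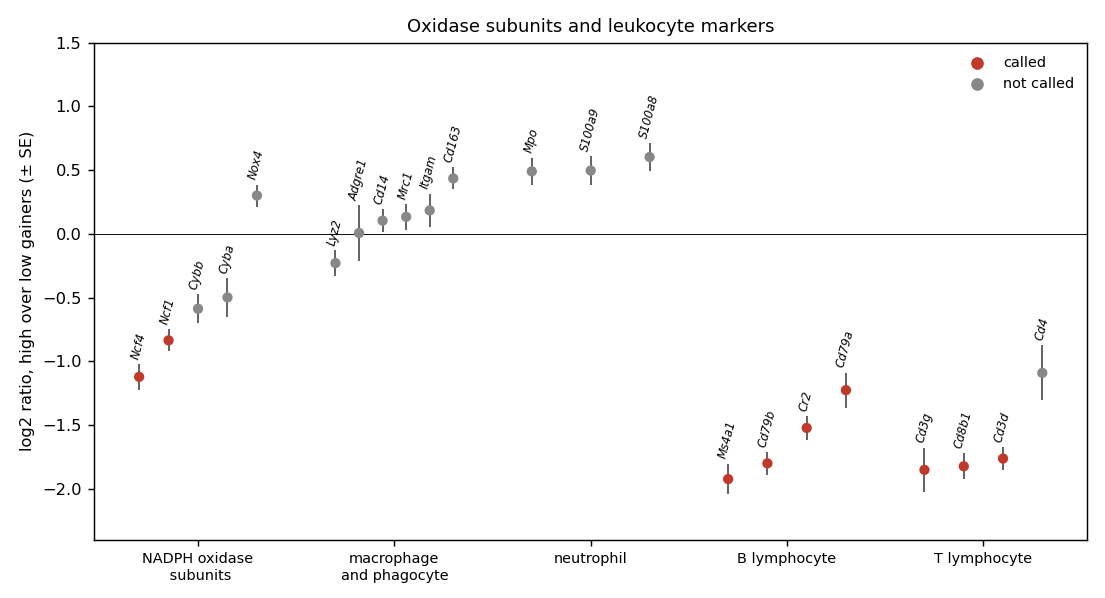
Log2 ratio of high over low gainers with its standard error for the oxidase subunits and for the measured markers of macrophages, neutrophils, B lymphocytes and T lymphocytes. Red points were called. The B and T lymphocyte markers lie between -1.92 and -1.09, and the macrophage markers between -0.23 and 0.44.

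Among the enzymes that act on superoxide, Sod3 was the one whose arrays did not overlap. Sod3 is the superoxide dismutase secreted into the space between cells, and it gave 1075035, 1154473 and 1015210 in high gainers against 850152, 707310 and 743421 in low gainers. The log2 ratio was 0.50 (SE 0.11), with a limma adjusted p of 0.0215 and a fold of 1.41 (interval 1.18 to 1.69), which is short of both thresholds. Its values lie among the highest 437 ranks, which hold equal values on all arrays after the normalization. The same is true of Fth1, Ftl1, Gpx4, Prdx1, Selenop and Trf on all 6 arrays. It is also true of Mgst1, Mt1, Prdx3 and Sod1 on some of the arrays.

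Sod1, the cytosolic copper and zinc enzyme, and Sod2, the manganese enzyme of mitochondria, overlapped between the pools. The log2 ratio of Sod1 was 0.02 with a 95% interval from -0.30 to 0.35. That of Sod2 was 0.04 with an interval from -0.21 to 0.29. A difference as large as that of Ncf4 lies outside both intervals.

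Catalase, the peroxide-degrading enzyme of peroxisomes, gave 167742, 149079 and 156440 in high gainers and 176543, 310607 and 218898 in low gainers. All low-gainer arrays were higher, but they differed among themselves more than the high-gainer arrays did, with means of 157754 ± 9401 and 235349 ± 68529 (SD, n = 3 arrays each). The log2 ratio of Cat was -0.54 (SE 0.20, limma adjusted p = 0.110). Without 1 array at a time it ran from -0.73 to -0.32.

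The glutathione peroxidases did not move together. Gpx4, which reduces lipid hydroperoxides in membranes, had a log2 ratio of 0.08, and Gpx1, the common cytosolic enzyme, one of -0.13, both with overlapping arrays. Gpx3, the enzyme secreted into plasma, gave 61811, 50842 and 51578 against 48272, 42912 and 43670, a log2 ratio of 0.28 (limma adjusted p = 0.143). Gpx7, an enzyme of the endoplasmic reticulum that takes part in oxidative protein folding, gave 41003, 43240 and 47969 against 30319, 31768 and 33805. These arrays did not overlap, and the log2 ratio was 0.46 (SE 0.10, limma adjusted p = 0.0225). Gpx8, its relative in the same compartment, was on the other side at -0.24 (limma adjusted p = 0.124). The genes of glutathione synthesis and recycling all had overlapping arrays. The log2 ratio was -0.17 for Gclc, the catalytic subunit of the rate-limiting ligase, and 0.01 for Gclm, its modifier subunit, whose motif is printed above. It was -0.05 for Gss, glutathione synthetase, and -0.20 for Gsr, glutathione reductase.

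**Figure D4:**
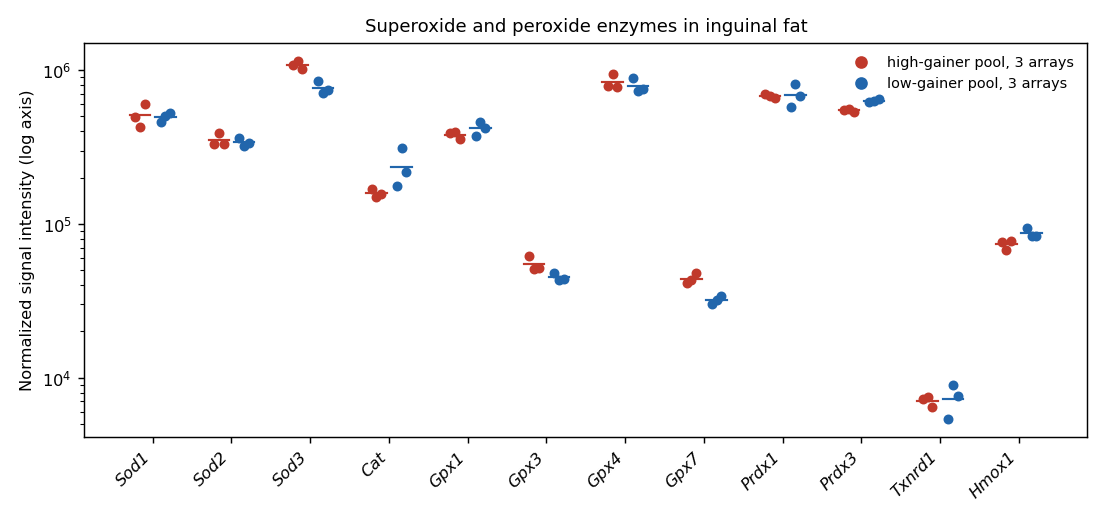
Normalized signal intensity on a log axis for enzymes that act on superoxide, peroxide and heme, 1 point per array, red for high and blue for low gainers, with a line at the mean. The pools do not overlap for Sod3, Cat, Gpx3, Gpx7, Prdx3 and Hmox1, and none of the genes in this plot was called.

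Of 18 glutathione transferases 15 were measured, and none was called. At an unadjusted p under 0.05 in limma 4 were higher and 3 lower. The highest ratios were those of Gstt1 and Gstt3, of the theta class. Gstt1 gave 52650, 47534 and 61713 in high gainers and 29204, 37983 and 37284 in low gainers, a log2 ratio of 0.63 (SE 0.15, limma adjusted p = 0.0265) and a fold of 1.55, the highest of all members. Gstt3 gave 52611, 55250 and 69351 against 40741, 39338 and 36143, a log2 ratio of 0.60 (SE 0.13, limma adjusted p = 0.0197). For both genes every high-gainer array was above every low-gainer array and the fold passed 1.5, while the adjusted p did not pass 0.01. Their relative Gstt2 had a log2 ratio of -0.26, with overlapping arrays.

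In the mu class, Gstm6 had a log2 ratio of 0.40 (limma adjusted p = 0.0545), Gstm4 one of 0.28, Gstm2 one of 0.17 and Gstm5 one of 0.05. In the alpha class, Gsta3 lay lowest of the transferases, with 230548, 227262 and 214040 in high gainers and 282284, 289935 and 311295 in low gainers. The arrays of Gsta3 did not overlap, and the log2 ratio was -0.39 (SE 0.09, limma adjusted p = 0.0276), or 1.31-fold lower. Gsta4, which clears the lipid aldehyde 4-hydroxynonenal and is prominent in adipocytes, gave 56357, 64726 and 61771 against 76019, 71478 and 66630. Its log2 ratio was -0.23 (SE 0.10, limma adjusted p = 0.180), with no overlap between the pools. The membrane enzymes Mgst1, Mgst2 and Mgst3 had log2 ratios of -0.17, -0.29 and 0.04. Transferases of 1 class have similar sequences, and whether a probe also read its relatives was not tested.

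The selenoproteins and the sulfoxide reductase had the highest median of any role, 0.26 over 9 measured genes, with 6 above 0 and 3 below. Without Selenbp2, which is not a selenoprotein, the median of the other 8 was 0.18. Within this role, 5 genes, Selenbp2 among them, were higher on every high-gainer array and 0 were higher on every low-gainer array, whereas 20.3% and 16.3% of all probes did so. None was called. At an unadjusted p under 0.05 in limma 5 were higher and 0 lower. Selenom, a thioredoxin-like protein of the endoplasmic reticulum, gave 39646, 39526 and 44586 against 30054, 32842 and 31304 (log2 ratio 0.39, SE 0.10, limma adjusted p = 0.0339). Selenos, which takes part in the removal of misfolded proteins from that compartment, gave 110510, 113602 and 113642 against 90646, 87603 and 90420 (log2 ratio 0.33, SE 0.09, limma adjusted p = 0.0385). The spread within each pool was small for Selenos, and the difference was 1.26-fold. Selenof, another resident of the endoplasmic reticulum, had a log2 ratio of 0.26 (limma adjusted p = 0.0910). Selenon, a membrane protein of the same compartment known for its part in muscle, had one of 0.34 (limma adjusted p = 0.109), and Selenbp2 one of 0.34 (limma adjusted p = 0.0716). Selenop, the secreted carrier of selenium, gave 1753805, 1669499 and 1603142 against 1828354, 1587203 and 1632614, and its log2 ratio of -0.00 had an interval from -0.24 to 0.23. Selenow, a small cytosolic selenoprotein, gave 31511, 22846 and 32880 against 21239, 36720 and 30403. It had the same log2 ratio of -0.00 with a wide interval from -0.53 to 0.53. Selenoo, a mitochondrial selenoprotein, lay lowest of the role at -0.16 (SE 0.10, limma adjusted p = 0.337), with overlapping arrays. Msrb2, the mitochondrial methionine sulfoxide reductase, had a log2 ratio of 0.10. A list of selenoprotein synthesis genes, to which the deiodinase Dio2, itself a selenoprotein, had also been assigned, had 6 measured genes with a median log2 ratio of -0.26 and 0 called in either direction. Of these, 4 came from dim probes, and the median was -0.04 without dim probes. Without array 2 of the high gainers the median was -0.14, and likewise without array 1 of the low gainers. At an unadjusted p under 0.05 in limma 2 were lower and 0 higher, namely Scly, a selenocysteine lyase that recycles selenium, with a log2 ratio of -0.42 (limma adjusted p = 0.112), and Dio2, which activates thyroid hormone, with one of -0.58 (limma adjusted p = 0.0430), both from dim probes.

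**Figure D5:**
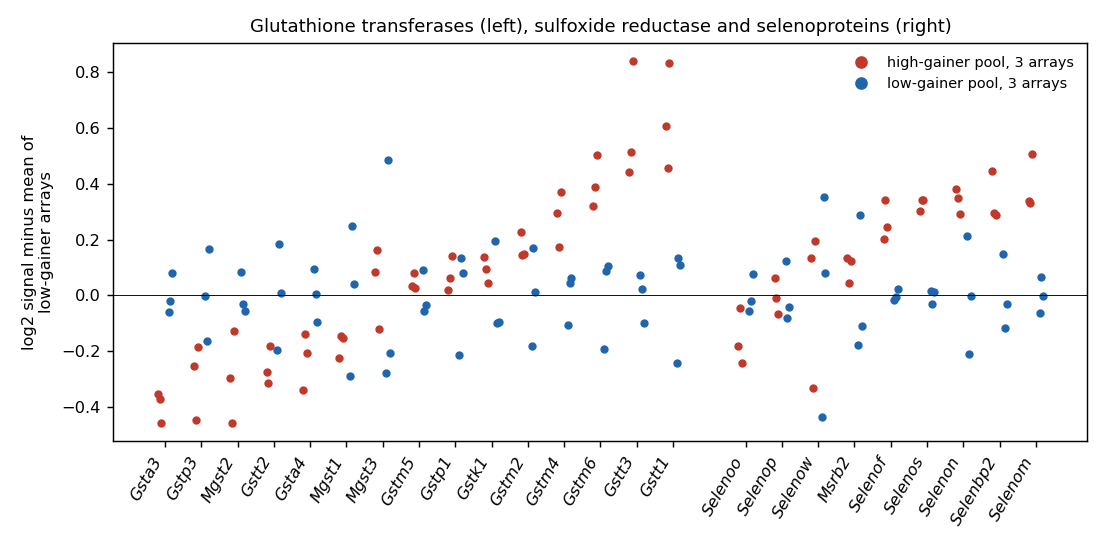
Log2 signal of each array less the mean of the low-gainer arrays, for the 15 glutathione transferases on the left and the 9 genes of the selenoprotein role on the right, red for high and blue for low gainers. The transferases run from -0.39 for Gsta3 to 0.63 for Gstt1 in mean difference, and Selenof, Selenos, Selenon, Selenbp2 and Selenom have red points above all blue ones.

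Of the 23 peroxiredoxins, thioredoxins, glutaredoxins and their relatives 21 were measured, and none was called, with a median log2 ratio of 0.05. At an unadjusted p under 0.05 in limma 2 were higher and 2 lower. Prdx3, the peroxiredoxin of mitochondria, gave 549740, 558674 and 532107 against 624416, 627542 and 649136. The arrays did not overlap, but the difference was small, with a log2 ratio of -0.21 (SE 0.09, limma adjusted p = 0.141) or 1.16-fold. Prdx1, an abundant cytosolic peroxiredoxin, had a log2 ratio of -0.00 on its brighter probe and -0.10 on its other probe. Srxn1, which repairs overoxidized peroxiredoxins and is an Nrf2 target, had a log2 ratio of 0.21 (limma adjusted p = 0.194), with no overlap. Txnip, the thioredoxin-binding protein that glucose induces, had one of 0.02 with an interval from -0.33 to 0.37, and Txnrd1, the cytosolic thioredoxin reductase, one of -0.03 with an interval from -0.46 to 0.41. The highest was Txnl1 at 0.32 (limma adjusted p = 0.0709) and the lowest Txndc16 at -0.39 (limma adjusted p = 0.0634), the latter from a dim probe. Glrx5, the mitochondrial glutaredoxin of iron-sulfur cluster assembly, had a log2 ratio of 0.26 (limma adjusted p = 0.101).

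For members of metal and iron handling the median log2 ratios were near 0, but few genes were measured. The median was 0.06 over 2 metallothioneins, with ratios from -0.05 to 0.17. It was 0.04 over 3 genes of iron storage and transport, with ratios from -0.16 to 0.26. Mt1, the metallothionein that zinc and glucocorticoids induce, gave 592594, 579041 and 617827 in high gainers and 610937, 514656 and 477139 in low gainers, a log2 ratio of 0.17 with overlapping arrays, and its second probe had 0.21. Mt3, the metallothionein of brain, had one of -0.05. The ferritin genes Fth1 and Ftl1, whose chains store iron, had log2 ratios of 0.04 (interval -0.34 to 0.43) and -0.16 (interval -0.66 to 0.34), the latter with the widest spread of all members on the high-gainer arrays. Trf, the iron carrier transferrin, gave 1187510, 1128207 and 1036871 against 933424, 949741 and 903175. The pools did not overlap for Trf, and the log2 ratio was 0.26 (SE 0.09, limma adjusted p = 0.104). Tfrc, the transferrin receptor, had values on 3 high-gainer and 2 low-gainer arrays and was not tested.

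Heme degradation was likewise close to 0 or slightly below. Hmox1, the inducible heme oxygenase, gave 76394, 67464 and 76838 in high gainers and 94721, 83037 and 83815 in low gainers. The pools did not overlap, and the log2 ratio was -0.25 (SE 0.11, limma adjusted p = 0.163). Hmox2, the constitutive form, had a log2 ratio of -0.08, and the biliverdin reductases Blvra and Blvrb had 0.04 and -0.02. In the Nrf2 system, Keap1, which marks Nrf2 for degradation, had one of -0.06, and Sqstm1, the autophagy adaptor that binds Keap1, one of 0.01. Nqo2, a quinone reductase, gave 10452, 11767 and 10131 against 7711, 8446 and 8018, with no overlap, a log2 ratio of 0.42 (SE 0.10) and a limma adjusted p of 0.0301. Nfe2l2, which encodes Nrf2, Nqo1, Mt2 and Ireb2 had no probe with a single symbol and were not analysed here.

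Of genes outside the member list but of the same pathways, 94 had a named probe and 79 were measured. Among these 1 was called higher and 2 lower, one of the latter being Rac2, beside 2.5% higher and 3.99% lower of all probes. Of 13 measured Nrf2 targets other than members none was called, with a median log2 ratio of 0.09, and at an unadjusted p under 0.05 in limma 2 were higher and 1 lower. Cbr3, a carbonyl reductase among them, had a log2 ratio of -0.50 (limma adjusted p = 0.0112), and Akr1b8, an aldo-keto reductase, one of 0.46 (limma adjusted p = 0.0228). Of 7 partners and repressors of Nrf2 none was called (median 0.14), and 1 was higher and 0 lower at that unadjusted p. Of 15 genes of glutathione use and turnover none was called (median 0.08), and 2 were higher and 2 lower at that unadjusted p.

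Of 16 other iron genes 1 was called. Bdh2, a short-chain dehydrogenase that has been linked to an iron-binding siderophore, gave 13617, 14448 and 14872 against 9396, 8658 and 7862 (log2 ratio 0.73, SE 0.10, limma adjusted p = 0.00369). It was called in 1 of the 6 fits without 1 array, with an adjusted p of up to 0.0183 in the others. Of 15 copper and zinc genes 1 was called (median 0.12), and 3 were higher and 1 lower at that unadjusted p. Slc39a4, a zinc importer of epithelia, gave 2495, 2677 and 2252 against 5257, 5062 and 4739, a log2 ratio of -1.02 (SE 0.10, limma adjusted p = 0.000855) from a dim probe. In the same pools 3 of 4 measured markers of glandular epithelium were called lower, with sums of 13572 to 18107 and 47439 to 55085, and their part in the Slc39a4 value was not tested. Skeletal muscle markers, of which 5 of 5 measured were called lower, had sums of 858263 to 936772 and 1622798 to 1837037. Other oxidases and partners, 7 measured, gave Rac2 as the only call, and Xdh, xanthine dehydrogenase, had a log2 ratio of 0.45 (limma adjusted p = 0.0163).

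The spread between arrays limits which differences between the pools could be seen, and the spread between mice was not measured. The coefficient of variation between the 3 arrays of a pool had a median over members of 6.07% in high gainers and 8.32% in low gainers, and reached 31.2% for Mgst3 on the low-gainer arrays and 27.5% for Ftl1 on the high-gainer arrays. Of the 14 members without a value on every array, 5 had none on any array, namely Nox1, Nox3, Noxa1, Mt4 and Selenov. The other 9 had a value on 1 to 5 arrays, among them Gstm1, with 2 high-gainer and 3 low-gainer arrays, and Gpx5, with 3 and 2. They were not tested, and no fold is given for them.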

How the data were processed

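One-color Applied Biosystems mouse arrays were hybridized with labeled cRNA of each RNA pool and read by chemiluminescence. The deposited table holds linear signal intensities after quantile normalization by the authors, and ranks 1 to 437 hold equal values on all 6 arrays. An array held a value for 18018 to 20605 of 33012 probes. The study's methods keep features by signal to noise and a quality flag. Whether this filter made the blank cells is not stated in the sources read, and a blank was treated as not measured. The number of arrays limits the precision of the comparison of the pools. With a single pool for each group, the spread between mice was not measured.

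Values of the 15821 probes present on every array were taken to log2 with no offset, not normalized again, and fitted by pool in limma 3.58.1 (functions lmFit and eBayes, no block) under R 4.3.3. The p-values were adjusted over all 15821 probes. The correlation between arrays was 0.988 to 0.994 within a pool and 0.972 to 0.980 between pools. A probe was dim where its mean log2 signal lay in the lowest 33.3%. The study's own test was an ANOVA, run here as an alternative. The procedure was tested on simulated data.

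Names came from a platform annotation in which 14411 probes had 1 symbol, 247 had several and 18354 had none, and 14402 of the first kind matched RefSeq gene identifiers of GRCm38.p6. Probes with several symbols, such as one for Gsta1 and Gsta2, were not used. Promoter sequences are those of RefSeq for GRCm38.p6. Named were called genes, the member with the highest and the one with the lowest ratio in each role, and 30 well known genes. Of these well known genes, Nfe2l2, Nqo1, Mt2 and Ireb2 had no probe with a single symbol and are not members. Any other gene was picked with its values in view. The members and all lists were chosen with earlier results of these data known.

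As alternatives, the values were quantile normalized once more or each array was centered on its median. The others were the removal of dim probes, an offset of 1484 (the 10th percentile of all values), the array number as a block, an intensity trend with robust estimation, the ANOVA with and without adjustment, a fold threshold of 2 or none, averaging of a gene's probes, values on at least 2 arrays of each pool, and leaving out each array. Deviations from the pool means of same-numbered arrays had r of 0.04, -0.11 and 0.27 for arrays 1, 2 and 3. The value was positive for array 3, and whether the numbers mark a shared run was not tested. The main fit used no pairs.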

Additional observations from a re-analysis of the deposited data

How the results depend on the processing

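Ncf4 and Ncf1 were called lower in all alternatives run except that Ncf1 was not at a fold threshold of 2 and Ncf4 was not under the ANOVA after adjustment, so that 1 member was lower in each. Cybb was called lower with an intensity trend, without dim probes and under the ANOVA without adjustment. The same intensity trend and the removal of dim probes each called 2 members higher, Gstt1 and Gstt3. No called value changed sign. Over all probes, a fold threshold of 2 left 98 higher and 402 lower, the ANOVA after adjustment 46 and 111, and leaving out 1 array 105 to 319 higher and 368 to 493 lower. With the array number as a replicate block 173 were higher and 446 lower, and the members called were again 0 higher and 2 lower. Of the companion genes, 0 were higher at a fold threshold of 2, under the adjusted ANOVA and with the block, and 0 to 1 without 1 array, since Bdh2 was called in 1 of those fits. There were 0 lower under the adjusted ANOVA and 1 without dim probes, where Slc39a4 was not tested. The cause of the other changes was not tested.

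Median log2 ratios were -0.0581 for iron storage and transport with values on at least 2 arrays of each pool, which adds Tfrc, -0.7116 for the oxidase subunits without dim probes, which drops Nox4, and -0.0438 for selenoprotein synthesis without dim probes. In alternatives chosen after seeing the data, the median was 0.182 for the selenoprotein role without Selenbp2 and -0.2231 for selenoprotein synthesis without Dio2. Without 1 array the median ran from -0.0168 to 0.0425 for all members, -0.0331 to 0.057 for transferases, -0.0125 to 0.0584 for superoxide dismutases and catalase, 0.0202 to 0.1216 for peroxiredoxins and thioredoxins, 0.2233 to 0.2935 for selenoproteins, -0.0093 to 0.192 for iron storage, -0.0931 to -0.0255 for heme degradation, and -0.6748 to -0.5238 for oxidase subunits. In the other lists it ran from 0.0444 to 0.1317 for Nrf2 targets, 0.0922 to 0.2262 for iron genes, 0.0534 to 0.1833 for copper and zinc genes, -0.3286 to -0.1386 for selenoprotein synthesis, 0.0285 to 0.1125 for glutathione use, and -0.014 to 0.1 for other oxidases.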
